A study of Mus musculus with 16 samples.

Results

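The genes examined here were 40 genes of proliferation and mitosis, listed by symbol: 23 of mitosis and the cyclins, 14 of DNA replication and nucleotide synthesis, and 3 transcription factors. Each of the 40 symbols had 1 Ensembl identifier among the 49315 in the deposited count table, and all 40 were among the 15993 genes that passed the filter on low counts. They were read in MTECs, primary cultures of mouse tracheal epithelial cells differentiated at an air-liquid interface, from male and female mice. The mice came from heterozygous breeding of an LMAN1 line on a C57BL/6J background, and WT and KO littermates were used. Cultures were left naive or received 20 µg/ml of house dust mite (HDM) extract overnight, which gave 8 groups of 2 libraries: male WT naive, male WT HDM, male KO naive, male KO HDM, female WT naive, female WT HDM, female KO naive and female KO HDM. LMAN1 is a cargo receptor between the endoplasmic reticulum and the Golgi, and HDM is an extract of allergens and proteases. The labels call the 2 libraries of a group biological replicates, and nothing read here ties a library to single animals.

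Cells that divide copy their DNA once and then separate the copies, and each step has its own proteins. Replication genes are transcribed as cells leave G1, largely through E2F factors, while mitotic genes peak later under MYBL2, FOXM1 and the CCAAT-binding factor NF-Y. In quiescent or differentiated cells the DREAM complex holds many of these promoters down, in part through a short element called the CHR. In the trachea, basal cells are the main dividing epithelial cells, and ciliated cells do not divide.

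The promoters are shown first, since the list was not chosen on promoter sequence. RefSeq (GRCm38.p6) held a promoter window for 33 of the 40 genes, and the 250 bases before the start site were searched on both strands for CCAAT (the CCAAT box), for TTTGAA or TTCGAA (the CHR), and for TTTGGCGC, TTTCCCGC, TTTCGCGC or TTTGCCGC (E2F). A CCAAT box was present in 25 of the 33 windows (75.8%), against 34.5% of 27025 genes. A CHR was present in 10 (30.3% against 17.4%), and an E2F element in 5 (15.2% against 1.91%). Of the 19 mitotic genes with a window, 17 held a CCAAT box and 8 a CHR, and of the 12 replication genes 4 held an E2F element. These are matches of letters in a window, with no measure of binding. Printed are the 200 bases before the start for Mki67, Top2a, Ccnb2 and Rrm1, whose levels are given for every library and whose window lies outside annotated exons, and for Mcm5 and Mcm6, added after the matches were seen because they hold E2F elements. Capitals mark the matches on either strand. The paired E2F elements of Mcm5 and of Mcm6 overlap on opposite strands, so a capital run there holds more than 1 match.
Mki67, chr7:135716380-135716579, minus strand: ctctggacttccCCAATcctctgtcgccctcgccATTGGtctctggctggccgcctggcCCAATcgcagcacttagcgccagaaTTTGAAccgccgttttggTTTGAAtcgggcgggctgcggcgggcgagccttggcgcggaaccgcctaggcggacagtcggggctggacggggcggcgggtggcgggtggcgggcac
Top2a, chr11:99024190-99024389, minus strand: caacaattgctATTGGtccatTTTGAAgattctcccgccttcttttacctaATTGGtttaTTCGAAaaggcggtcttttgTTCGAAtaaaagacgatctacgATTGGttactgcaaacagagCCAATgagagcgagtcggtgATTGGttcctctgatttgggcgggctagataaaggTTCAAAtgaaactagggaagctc
Ccnb2, chr9:70421555-70421754, minus strand: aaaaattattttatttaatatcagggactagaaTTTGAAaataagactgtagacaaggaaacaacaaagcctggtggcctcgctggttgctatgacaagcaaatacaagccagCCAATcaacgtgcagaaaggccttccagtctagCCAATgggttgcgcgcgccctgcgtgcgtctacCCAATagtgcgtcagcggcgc
Rrm1, chr7:102441495-102441694, plus strand: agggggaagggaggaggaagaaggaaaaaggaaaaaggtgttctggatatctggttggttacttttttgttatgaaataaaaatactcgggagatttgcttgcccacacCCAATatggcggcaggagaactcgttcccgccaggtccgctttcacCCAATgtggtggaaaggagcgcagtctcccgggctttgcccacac
Mcm5, chr8:75109309-75109508, plus strand: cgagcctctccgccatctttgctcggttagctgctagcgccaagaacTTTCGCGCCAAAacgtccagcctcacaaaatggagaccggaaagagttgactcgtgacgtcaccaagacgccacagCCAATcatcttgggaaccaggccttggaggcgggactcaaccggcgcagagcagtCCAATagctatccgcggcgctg
Mcm6, chr1:128359706-128359905, minus strand: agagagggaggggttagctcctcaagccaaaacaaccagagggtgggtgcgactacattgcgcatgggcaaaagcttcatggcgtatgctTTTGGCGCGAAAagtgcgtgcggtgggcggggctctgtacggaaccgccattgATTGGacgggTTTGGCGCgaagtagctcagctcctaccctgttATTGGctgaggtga
In these windows Mki67 held 5 matches and Top2a 9, with CCAAT boxes and CHRs in both. Ccnb2 held 3 CCAAT boxes at 87, 54 and 21 bases before the start and a CHR at 167. Rrm1 held CCAAT boxes alone.

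The libraries held 21860698 to 43442188 counts on genes, and levels are given as CPM, the count of a gene relative to the library total scaled with edgeR's TMM factors. The lowest count of any of the 40 genes in any library was 75, for Ttk, so precision was limited by having 2 libraries a group rather than by counting. Lman1 itself went against some labels: WT libraries held 101 to 144 CPM, both female KO naive libraries 12.8, and the male KO naive libraries 14.2 and 63.4. The 4 libraries labelled KO and treated with HDM held 65.0 to 78.1 CPM, so 5 of the 8 libraries labelled KO held over 20% of the WT mean, and genotype below is as labelled. Of the epithelial markers, Krt5, the basal keratin, was at 628 to 5868 CPM and the ciliated factor Foxj1 at 44.8 to 97.5. The 8 ciliated markers summed to 53.4 to 143 CPM, and the highest after Foxj1 was Rsph1 at 3.04 to 16.9. In female WT MTECs Foxj1 averaged 79.4 CPM naive and 82.9 under HDM, while the rest of that list was lower under HDM. Rsph1 went from 12.6 to 3.25 CPM there and Tekt1 from 3.53 to 0.089. Among the 8 secretory markers Cyp2f2 was at 3754 to 18918 CPM and Reg3g at 46.6 to 6883, while the club cell secretoglobin Scgb1a1 reached at most 3.75. Of the lists for other cell types, 8 stromal genes summed to 2.99 to 598 CPM, 6 endothelial genes to 1.09 to 3.20 with Emcn at 0 in all 16 libraries, and 8 immune genes to 380 to 968 CPM. In the immune list Cd14 was at 286 to 705 CPM and Lyz2 at 62.2 to 238, and the T cell marker Cd3e was at 0 in 15 libraries.

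Per kilobase of exon, so that genes can be compared, the median level over the 16 libraries was 13.9 CPM for the 14 replication and nucleotide genes, 6.56 for the 23 mitotic genes and 3.34 for the 3 factors. Pcna, the sliding clamp of the replication fork, was highest at 63.3 CPM per kb. Cdc20, the activator of the anaphase-promoting complex, followed at 31.4, then Mcm7 of the replicative helicase at 25.4, and Ttk, a kinase of the spindle checkpoint, was lowest at 1.53. All 40 genes were therefore measured in every culture, the replication genes at the higher median level. Among these Cdc6, Gins2, Tyms and Tk1 lay below the mitotic median, at 2.29, 2.75, 2.90 and 4.39 CPM per kb.

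The genes moved as a block from library to library, and much of that movement lay between replicates of a group. Summed over the 40 genes, the level was 2115 and 1324 CPM in the male WT naive replicates, 2407 and 1461 in male WT HDM, and 2050 and 1310 in male KO naive. In these 3 groups all 40 genes were higher in replicate 1, by a median of 1.69, 1.69 and 1.82 times. Female WT HDM MTECs were also split, at 1690 and 1084 CPM, with 39 of 40 genes higher in replicate 1 and E2f1 the exception. The replicates of the other groups were closer: male KO HDM held 1315 and 1206 CPM, female WT naive 1687 and 1893, female KO naive 1771 and 1909, and female KO HDM 2242 and 2088. They still differed in 1 direction for most genes, with 38, 0, 11 and 33 of the 40 higher in replicate 1. The male KO HDM pair lay low, and the female KO HDM pair high. Male WT HDM replicate 1 held the highest value of 26 genes. The lowest values lay mainly in female WT HDM replicate 2 (23 genes) and male KO HDM replicate 2 (12 genes). In bulk RNA, fewer dividing cells and less of these transcripts per dividing cell cannot be told apart.

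**Figure D1:**
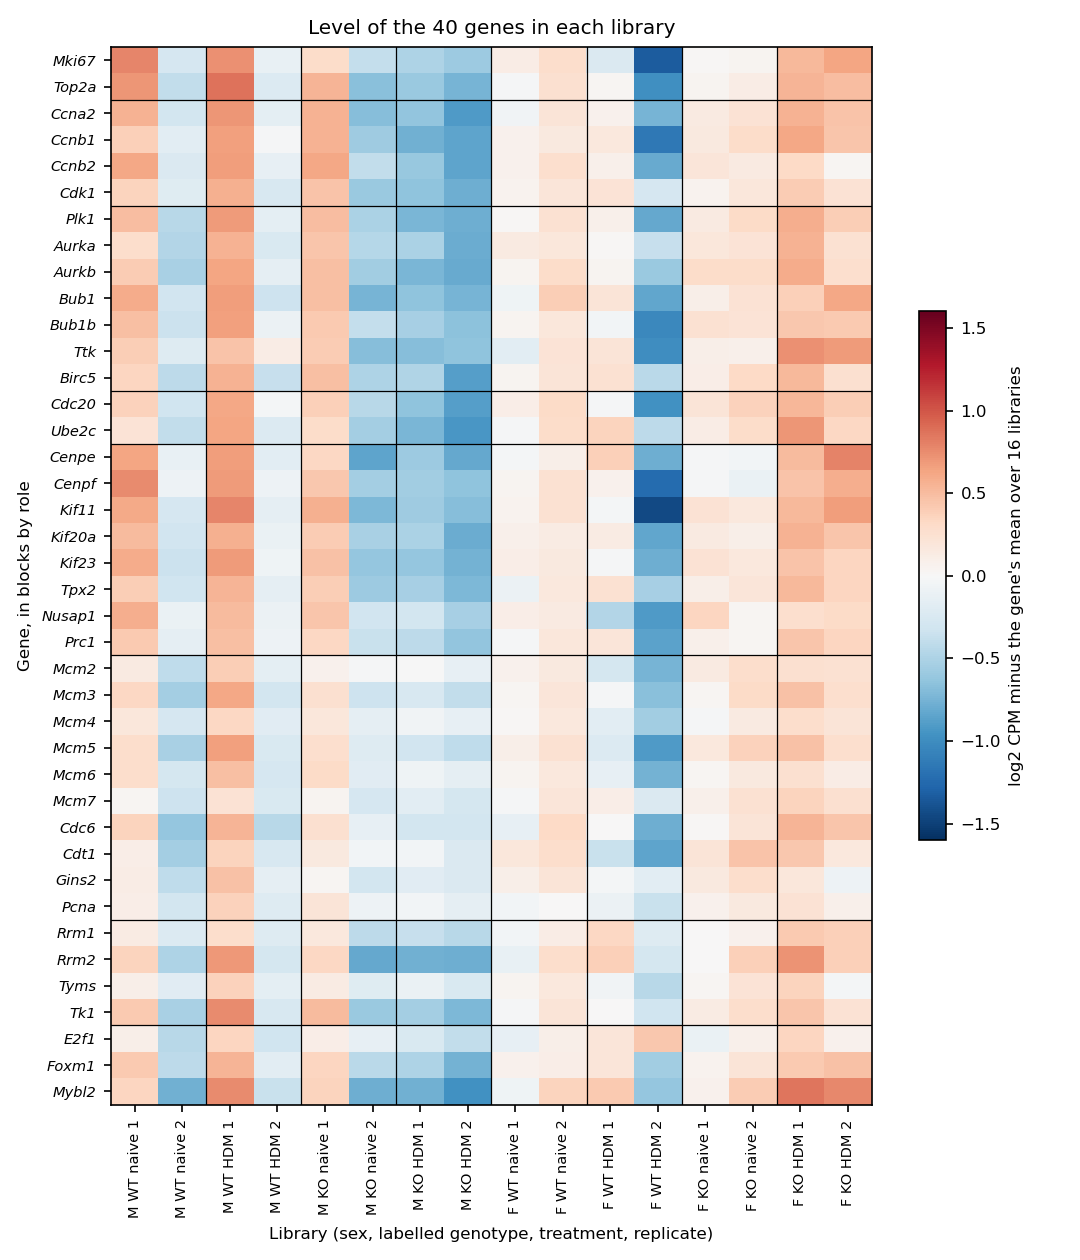
Heat map of the 40 genes (rows, in blocks by role) in the 16 libraries (columns, in pairs by group; M is male and F female). Colour is log2 CPM minus the mean of that gene over the 16 libraries. Replicate 1 is redder than replicate 2 in male WT naive, male WT HDM and male KO naive, both male KO HDM libraries are blue, and both female KO HDM libraries are red for nearly every gene.

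Mitotic genes swung further than replication genes. The ratio of the highest to the lowest library had a median of 2.86 over the mitotic genes (range 2.40 to 4.67), 2.28 over the replication genes (1.61 to 2.95) and 2.46 over the factors. In male KO HDM MTECs the mitotic genes lay at a median of -0.59 and -0.78 (log2) from their own means, and the replication genes at -0.18 and -0.26. In female WT HDM replicate 2 the medians were -0.83 and -0.50. Across the 16 libraries, which share groups and replicate differences, pairs of mitotic genes had a median Pearson r of 0.942 (253 pairs), pairs of replication genes 0.862 (91 pairs) and pairs across these groups 0.836. E2f1 stood apart, with a median r of 0.458 to the other 39 genes. These correlations are descriptions.

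**Figure D2:**
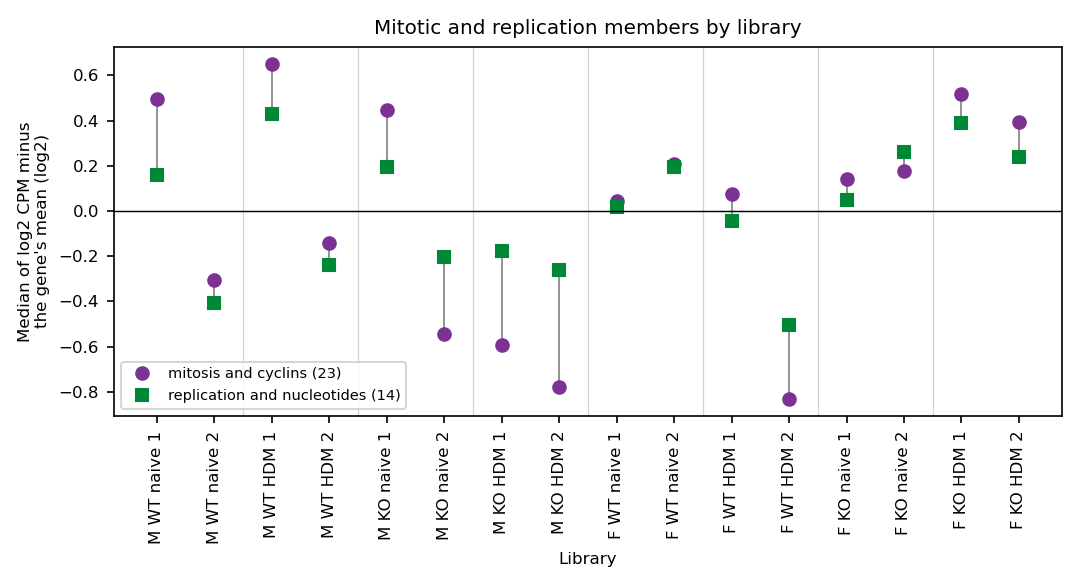
Median over the 23 mitotic genes (circles) and over the 14 replication and nucleotide genes (squares) of log2 CPM minus the mean of the gene, for each of the 16 libraries. The circles lie farther from 0 than the squares in the low male KO HDM libraries, where the medians are -0.59 and -0.78 against -0.18 and -0.26.

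Mki67 and Top2a are widely used as labels of cycling cells, the first coating mitotic chromosomes and the second untangling DNA. In male MTECs Mki67 stood at 147 and 71.1 CPM in WT naive, 141 and 78.7 in WT HDM, 104 and 65.6 in KO naive and 60.9 and 57.3 in KO HDM. In female MTECs it stood at 92.7 and 104 in WT naive, 72.7 and 33.9 in WT HDM, 86.3 and 88.4 in KO naive and 122 and 132 in KO HDM. Under HDM the KO libraries of females thus lay above every female WT library, and those of males below every male WT library. Top2a in males was at 137 and 63.9 CPM in WT naive, 153 and 71.9 in WT HDM, 122 and 52.9 in KO naive and 55.6 and 50.1 in KO HDM. For females the Top2a values were 82.8 and 100.5 in WT naive, 85.2 and 42.4 in WT HDM, 86.3 and 91.1 in KO naive and 122 and 118 in KO HDM. Both were lowest in female WT HDM replicate 2, and they spanned 4.33-fold and 3.60-fold over the libraries. Of all their comparisons, 1 passed the test: Mki67 was 2.38-fold higher in female KO than female WT HDM MTECs (log2 fold change 1.25, SE 0.39, adjusted p = 0.0345 from the quasi-likelihood test of edgeR, with Benjamini-Hochberg correction over all 15993 genes).

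Cyclins A and B bind CDK1 to drive entry into mitosis. Ccna2 in males was at 44.6 and 24.8 CPM in WT naive, 49.6 and 27.3 in WT HDM, 44.6 and 18.9 in KO naive and 19.5 and 16.1 in KO HDM. In females it was at 29.1 and 34.95 in WT naive, 31.8 and 18.04 in WT HDM, 33.5 and 35.5 in KO naive and 44.6 and 41.7 in KO HDM. Both male KO HDM libraries were among the 4 lowest and both female KO HDM libraries among the 5 highest. Ccnb2, one of the B cyclins, gave 25.3 and 14.03, 26.3 and 15.1, 25.4 and 12.5 and 10.8 and 9.19 CPM in the male groups in the same order. The female groups gave 17.3 and 19.9, 17.4 and 9.47, 18.9 and 18.3 and 20.6 and 16.9. Between male and female KO HDM MTECs, Ccna2 (log2 fold change -1.28, SE 0.42), Ccnb1 (-1.34, SE 0.41) and Cdk1 (-1.04, SE 0.33) were lower in males by edgeR (adjusted p = 0.0429, 0.0327 and 0.0401). Ccnb2 did not pass (-0.91, SE 0.39, adjusted p = 0.112 by edgeR). Exons of Ccna2 share 12.5% of their length with Exosc9 on the other strand, and whether reads were counted by strand is not given in the sources used here.

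Plk1 and Aurka encode kinases of spindle assembly and centrosome maturation, Aurkb and Birc5 belong to the chromosomal passenger complex, and Bub1, Bub1b and Ttk act in the spindle checkpoint. Plk1 in males was at 41.4 and 21.6 CPM in WT naive, 47.2 and 26.3 in WT HDM, 41.2 and 20.6 in KO naive and 17.6 and 17.1 in KO HDM. In females Plk1 was at 29.7 and 34.6 in WT naive, 31.2 and 16.6 in WT HDM, 32.5 and 36.4 in KO naive and 44.02 and 38.4 in KO HDM. The naive groups overlapped throughout. Aurka gave 23.6 and 14.1, 28.5 and 16.5, 26.5 and 14.2 and 13.7 and 11.3 CPM in the male groups in that order. Its female values were 21.4 and 22.1, 19.7 and 15.01, 22.1 and 22.6 and 28.6 and 23.1. Of the 7 genes of this role, 4 were lower in male than in female KO HDM MTECs: Plk1, Aurka, Aurkb and Ttk, at log2 fold changes of -1.25, -1.05, -1.21 and -1.37. Bub1, Bub1b and Birc5 had -1.19, -1.02 and -1.06 and did not pass.

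Cdc20 and Ube2c work with the anaphase-promoting complex, the ubiquitin ligase that ends mitosis. Cdc20 in males was at 71.9 and 44.6 CPM in WT naive, 85.5 and 54.3 in WT HDM, 72.5 and 40.7 in KO naive and 35.7 and 30.2 in KO HDM. In females it was at 59.9 and 68.7, 54.8 and 28.3, 64.4 and 72.01 and 80.6 and 73.04 in the same groups. Ube2c gave 35.1 and 22.98, 46.8 and 26.05, 36.9 and 20.8 and 18.2 and 15.9 CPM in the male groups, and 29.9 and 37.2, 38.6 and 22.7, 32.8 and 37.1 and 49.4 and 37.9 in the female groups. Both were lower in male than in female KO HDM MTECs. The difference was 2.56-fold for Ube2c (log2 fold change -1.36, SE 0.35, adjusted p = 0.0159 by edgeR), the smallest p of the 40, and 2.33-fold for Cdc20 (-1.22, SE 0.34, adjusted p = 0.0234 by edgeR).

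The spindle, kinetochore and midzone genes were Cenpe and Cenpf of the outer kinetochore, the kinesins Kif11, Kif20a and Kif23, and Tpx2, Nusap1 and Prc1, which organise microtubules. Tpx2 in males was at 54.6 and 33.3 CPM in WT naive, 60.8 and 37.7 in WT HDM, 54.6 and 27.7 in KO naive and 28.7 and 25.3 in KO HDM, and in females at 38.98 and 46.5, 49.2 and 28.8, 44.4 and 47.4 and 59.7 and 52.6. Kif20a was at 38.7 and 21.9, 40.3 and 25.3, 35.9 and 18.9 and 19.1 and 15.7 CPM in the male groups and at 28.7 and 29.8, 29.6 and 15.2, 30.1 and 29.1 and 39.8 and 36.98 in the female groups. Exons of Kif20a share 29.3% of their length with Cdc23 on the other strand. Nusap1 was the mitotic gene with a called response to HDM: it was at 19.9 and 20.5 CPM in female WT naive MTECs and at 13.4 and 9.90 in female WT HDM MTECs. The widest span of the 40 genes, 4.67-fold, belonged to Kif11, which separates spindle poles. Cenpe, Kif20a and Tpx2 were lower in male than in female KO HDM MTECs, at log2 fold changes of -1.35, -1.14 and -1.05, and the other 5 had -1.22 to -0.70 and did not pass.

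The licensing and fork genes encode the MCM2-7 helicase, its loaders Cdc6 and Cdt1, the GINS subunit Gins2 and the clamp Pcna. Pcna in males was at 162 and 123 CPM in WT naive, 195 and 130.4 in WT HDM, 174 and 143 in KO naive and 146 and 136 in KO HDM, and in females at 146 and 152, 142 and 118, 158 and 168 and 177 and 159.9. Mcm7 was at 114 and 88.6, 130.2 and 93.99, 114 and 92.3 and 98.5 and 91.5 CPM in the male groups and at 110.1 and 127, 119.9 and 94.5, 117 and 132 and 142 and 133 in the female groups. These were among the steadiest genes, with spans of 1.66-fold and 1.61-fold. Mcm7, alone among the licensing and fork genes, was still called lower in male than in female KO HDM MTECs. Mcm2 and Cdt1 differed in female WT MTECs, Mcm2 from 116 and 124 CPM naive to 90.9 and 66.02 under HDM, and Cdt1 from 28.4 and 30.4 to 19.6 and 13.9. In female KO MTECs Cdt1 was at 28.8 and 34.2 CPM naive and 33.6 and 28.00 under HDM, which overlap. Gins2 shares 67.3% of its exon length with Gse1 on the other strand, so its values are uncertain.

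Rrm1 and Rrm2 form ribonucleotide reductase, and Tyms and Tk1 make and salvage thymidylate. Rrm1 in males was at 139 and 109 CPM in WT naive, 154 and 109.7 in WT HDM, 142 and 94.1 in KO naive and 97.7 and 92.9 in KO HDM, and in females at 123 and 137, 158 and 109.5, 127 and 133 and 169 and 164. Rrm2 was at 32.5 and 17.97, 40.96 and 20.8, 31.99 and 14.4 and 14.9 and 14.7 CPM in the male groups and at 23.4 and 30.8, 32.9 and 20.9, 25.6 and 33.02 and 41.9 and 33.2 in the female groups. Both were lower in male than in female KO HDM MTECs, Rrm1 by 1.75-fold (log2 fold change -0.80, SE 0.22, adjusted p = 0.0194 by edgeR) and Rrm2 by 2.53-fold (-1.34, SE 0.42, adjusted p = 0.0365 by edgeR). In the HDM response of female WT MTECs Rrm1 and Rrm2 had log2 fold changes of 0.05 and -0.01, the nearest to 0 of the 40 genes.

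Among the factors, E2F1 drives replication genes, and FOXM1 and MYBL2 drive mitotic ones. Mybl2 in males was at 14.3 and 6.56 CPM in WT naive, 18.9 and 8.71 in WT HDM, 14.3 and 6.53 in KO naive and 6.60 and 5.75 in KO HDM, and in females at 10.6 and 14.4, 14.9 and 7.29, 11.7 and 14.9 and 20.2 and 19.1. Foxm1 was at 24.8 and 13.9, 27.00 and 16.4, 23.5 and 13.7 and 13.1 and 10.98 CPM in the male groups and at 19.4 and 19.9, 21.1 and 12.6, 19.3 and 21.4 and 24.7 and 25.6 in the female groups. E2f1 was at 18.7 and 12.99, 22.4 and 14.2, 19.03 and 16.1 and 14.9 and 13.4 CPM in the male groups and at 16.1 and 18.8, 20.1 and 23.8, 16.4 and 18.6 and 22.4 and 18.5 in the female groups. Mybl2 and Foxm1 followed the mitotic genes, and E2f1 was at its highest in female WT HDM replicate 2, where most of the other genes were at their lowest. Between male and female KO HDM MTECs, Mybl2 had the largest fold of the 40 genes, 3.19-fold lower in males (log2 fold change -1.67, SE 0.49, adjusted p = 0.0277 by edgeR), and Foxm1 was lower too (-1.06, SE 0.34, adjusted p = 0.0389 by edgeR), while E2f1 did not pass (-0.53, SE 0.22).

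**Figure D3:**
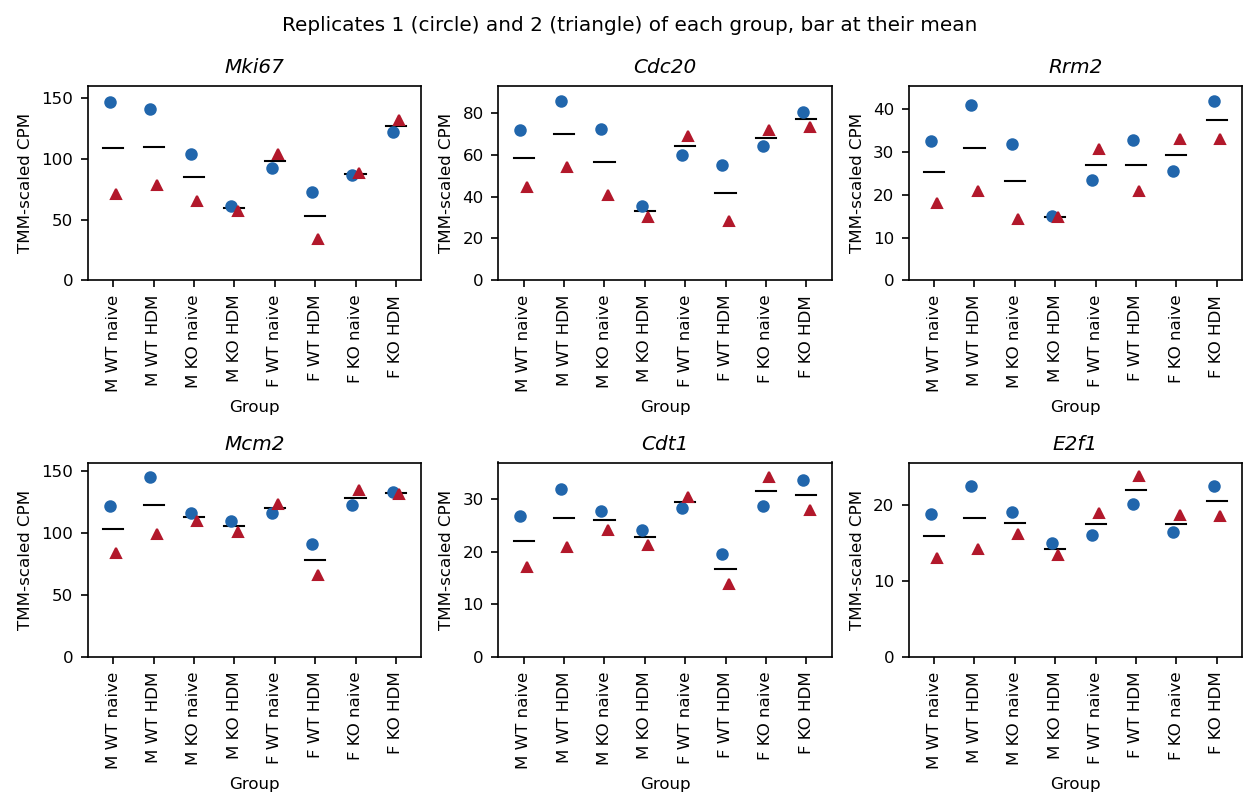
CPM of Mki67, Cdc20, Rrm2, Mcm2, Cdt1 and E2f1 in the 8 groups, with replicate 1 as a circle, replicate 2 as a triangle and a bar at their mean (M male, F female). Mki67, Cdc20 and Rrm2 are low in both male KO HDM libraries, Mcm2 and Cdt1 are lowest in female WT HDM replicate 2, and E2f1 is highest in female WT HDM replicate 2.

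Set side by side, the largest difference between groups was that of sex in KO HDM MTECs: all 40 genes were lower in males, the libraries of the 2 groups did not overlap for any of the 40 (nor for 69.7% of all genes), and the median log2 fold change was -1.05 against -0.003 over all genes. Of the 40, 17 were called lower and 0 higher, where the same fit called 25.3% of all tested genes in either direction. The unadjusted p was under 0.05 for 31, given without the share of all genes. The calls were 12 of 23 mitotic, 3 of 14 replication and 2 of 3 factor genes, and the medians were -1.14, -0.49 and -1.06. The median lay between -1.15 and -0.94 when any 1 of the 4 compared libraries was left out, but the number of calls then fell to 0 or 1, while DESeq2 called 23, a fit without the filter on low counts 37 and a fit on the 4 compared libraries alone 38. The share of all genes called in those other fits is not given here, so 23, 37 and 38 cannot be read against it. Secretory markers were higher in the same male libraries, 7 of 8 by edgeR. The secretory list summed to 24556 and 27160 CPM in males and 8246 and 7542 in females. The basal list summed to 6961 and 7070 CPM in males and 13315 and 10733 in females, 2 of its 8 genes being called lower and 2 higher in males. The part of these cell types in the result was not tested.

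The median genotype difference under HDM, with genotype as labelled, had opposite signs in the 2 sexes. Lman1 itself was not called in either comparison by edgeR. It had -0.59 in females (SE 0.44, adjusted p = 0.331 by edgeR) and -0.96 in males (SE 0.44, adjusted p = 0.274 by edgeR). In females 5 of 40 genes were called higher in KO and 0 lower (Mki67, Nusap1, Mcm2, Mcm4 and Cdt1), against 29.2% of all genes called, with 39 of 40 positive, a median log2 fold change of 0.70 and no overlap for 36 (68.3% of all genes). The median was 1.10 without female WT HDM replicate 1 and 0.38 without replicate 2. Leaving out a library took the count to 15 without female WT HDM replicate 1, 0 without female WT HDM replicate 2 or female KO HDM replicate 1, and 1 without female KO HDM replicate 2, while edgeR without the filter on low counts called 38. Mcm2 had 0.75 (SE 0.20, adjusted p = 0.0163 by edgeR) and Cdt1 0.88 (SE 0.24, adjusted p = 0.0200 by edgeR). In males 0 of 40 were called by edgeR, as were 0% of all genes. The unadjusted p was under 0.05 for 25, given without the share of all genes. Because the 40 genes moved as a block, these are not separate pieces of evidence. All 40 were lower in KO, with a median of -0.90 and no overlap for 30 (53.8% of all genes). Without male WT HDM replicate 1 the median was -0.44 and 7 genes were higher in KO, and without male WT HDM replicate 2 it was -1.22. DESeq2 called 1 of the 40 in males, and edgeR without the filter on low counts called 30 lower. The share of all genes called in these other fits, in either sex, is not given here. The difference between the sexes in this genotype effect was not tested. In female HDM MTECs the basal list summed to 4493 and 2386 CPM in WT and the secretory list to 4703 and 3838, so both lay lower than in KO, while the stromal list summed to 49.4 and 598 in WT and 69.9 and 66.3 in KO. Female WT HDM replicate 2, the library with the fewest proliferation transcripts, had the highest stromal sum of the 16 libraries and the fewest basal transcripts. Female WT naive replicate 2 had a stromal sum of 547 CPM with 1893 CPM over the 40 genes. The part of these cells was not tested.

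HDM itself was followed by few called changes among the 40 genes. In female WT MTECs, 3 of 40 genes fell and 0 rose, where 43.1% of all genes were called: Nusap1 (log2 fold change -0.79, SE 0.29), Mcm2 (-0.61, SE 0.20) and Cdt1 (-0.81, SE 0.24), at adjusted p = 0.0426, 0.0279 and 0.0186 by edgeR. The median of the 40 was -0.39, 38 were negative, and 17 did not overlap between groups, against 74.6% of all genes. The median was -0.09 without female WT HDM replicate 2 and -0.85 without replicate 1, with 0 and 13 calls, and leaving out either female WT naive library also gave 0, while a fit without the filter on low counts called 22. All 8 secretory, 5 of 8 basal and 4 of 8 ciliated markers fell in the same comparison and 2 of 8 stromal markers rose, and their part was not tested. In female KO MTECs, 0 were called by edgeR, with 0 at an unadjusted p under 0.05 and 0 by DESeq2, against 10.4% of all genes. There 38 of 40 were positive with a median of 0.22, and 26 did not overlap between groups, a share near the 60.4% of all genes. Without female KO HDM replicate 1 the median was 0.14. The fit on the compared libraries alone called 11 higher, and the fit without the filter 9. In male WT MTECs 0 were called by edgeR, 0 at an unadjusted p under 0.05 and 0 by DESeq2, beside 0% of all genes, and 0 did not overlap, against 29.6% of all genes. The median of 0.16 turned with the library left out, from 0.59 without naive replicate 1, with 40 of 40 positive, to -0.25 without HDM replicate 1, with 0 positive. In male KO MTECs 0 were called by edgeR, again beside 0% of all genes, and 0 by DESeq2, although all 40 were lower under HDM (median -0.62). Of these, 4 had an unadjusted p under 0.05, given without the share of all genes. The 17 that did not overlap are a share near the 38.5% of all genes. Without the filter on low counts edgeR called 28 lower. For the other fits in this paragraph the share of all genes called is not given, so their counts cannot be read against it. The median of -0.62 rested on 1 library. It was -0.08 without male KO naive replicate 1 and -1.03 without male KO naive replicate 2, the replicate with Lman1 at 63.4 CPM.

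In WT MTECs under HDM the sex difference had the other sign. There 3 genes (Nusap1, Mcm2 and Cdt1) were higher in males and 0 lower, against 41.6% of all genes called, with a median of 0.51 and no overlap for 4, against 68.3% of all genes. The median was 0.12 without male WT HDM replicate 1, 0.21 without female WT HDM replicate 2, 0.88 without male WT HDM replicate 2 and 0.93 without female WT HDM replicate 1. The count was 0 without male WT HDM replicate 1 or female WT HDM replicate 2, 10 without male WT HDM replicate 2 and 14 without female WT HDM replicate 1, 0 when the compared libraries alone were fitted, and 30 without the filter on low counts. For these other fits the share of all genes called is not given here. In the main fit Mki67 had 1.04 (SE 0.39, adjusted p = 0.0521 by edgeR). This comparison and the HDM response of female WT MTECs share the female WT HDM libraries, as does the genotype difference in female HDM MTECs, so their called genes are not independent.

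In naive MTECs no difference was called. For sex in WT (median -0.07) and in KO (-0.14), and for genotype in females (0.06) and in males (-0.04), edgeR called 0 of the 40 and DESeq2 0, with 0 at an unadjusted p under 0.05 in each. The shares of all genes called were 0.1%, 0.188%, 0% and 0%. Groups did not overlap for 1, 4, 7 and 0 of the 40 genes, against 44.2%, 36.9%, 27.6% and 28.4% of all genes. The signs of these medians were not stable: leaving out 1 compared library gave -0.46 to 0.25 for sex in WT, -0.63 to 0.23 for sex in KO, -0.03 to 0.15 for genotype in females and -0.55 to 0.35 for genotype in males. The extremes of the sex differences and of the male genotype difference came from leaving out a male naive replicate.

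**Figure D4:**
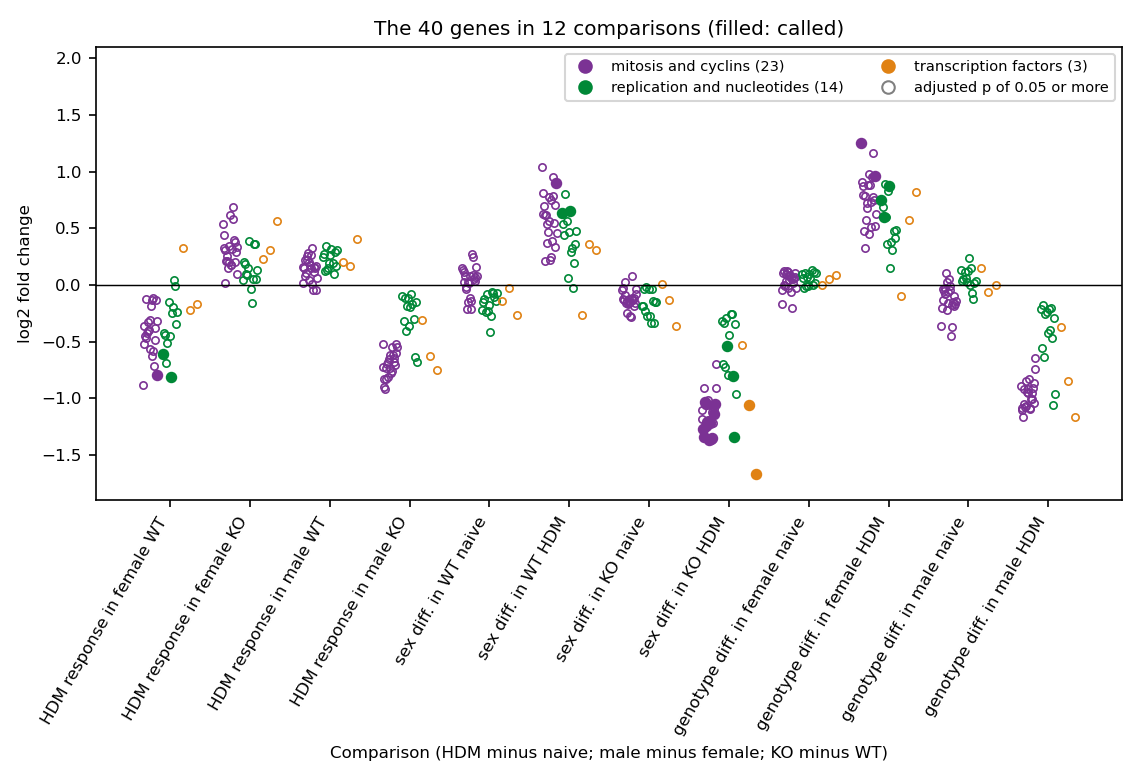
Log2 fold changes of the 40 genes in the 12 comparisons of 2 groups, each point 1 gene, filled where it was called by edgeR at an adjusted p under 0.05. The points of the sex difference in KO HDM lie between -1.67 and -0.26, those of the genotype difference lie mostly above 0 in female HDM and below 0 in male HDM, and those of the 4 naive comparisons lie around 0.

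Differences between the responses were tested as interactions. In WT the response to HDM was more positive in males than in females for 2 of 40 genes and less so for 0, Mcm2 (0.86, SE 0.28, adjusted p = 0.0451 by edgeR) and Cdt1 (1.07, SE 0.34, adjusted p = 0.0398 by edgeR), against 24.2% of all genes. Without male KO naive replicate 2, which is not among the compared libraries but enters the estimate of the spread, 1 remained, and leaving out each of the 8 compared libraries gave 0 to 4. The median over the 40 genes was 0.56, and 0.12 without male WT HDM replicate 1. In KO the median of the sex interaction was -0.91 with 0 called by edgeR, against 3.56% of all genes, and 0 by DESeq2. There 2 of the 40 had an unadjusted p under 0.05, given without the share of all genes. The interaction of genotype with HDM had a median of 0.65 in females (0 called by edgeR or DESeq2, 5 at an unadjusted p under 0.05, 11.2% of all genes called) and -0.77 in males (0 by either tool, 1 at an unadjusted p under 0.05, 0% of all genes called by edgeR). Lman1 itself was called in the female genotype interaction (2.67, SE 0.64, adjusted p = 0.0238 by edgeR), with genotype as labelled. Leaving out male KO naive replicate 1 moved the median of the sex interaction in KO to -0.35 and that of the male genotype interaction to -0.23, while leaving out replicate 2 of that group gave -1.31 and -1.17. The female genotype interaction had 0.33 without female WT HDM replicate 2 and 1.03 without replicate 1. Without the filter on low counts 31, 23 and 25 of the 40 were called in the KO sex, female genotype and male genotype interactions. The share of all genes called by that fit is not given here.

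Other cell cycle genes, 115 in 6 lists, were read beside the 40. Between male and female KO HDM MTECs, 16 of 36 other mitotic genes and 3 of 33 other replication genes were lower in males and 0 higher in either list, with medians of -1.01 and -0.55, where 25.3% of all genes were called. Of 14 G1 cyclins, kinases and Cdc25 genes 6 were lower and 0 higher, of 7 CDK inhibitors 2 were higher and 3 lower, and of 16 genes of the pocket protein, DREAM and E2F families 2 were higher and 2 lower. In the HDM response of female WT MTECs the same 5 lists gave 1 higher and 3 lower, 0 and 7, 4 and 2, 3 and 3, and 0 and 5, where 43.1% of all genes were called. Their medians there were -0.44, -0.46, 0.23, -0.24 and -0.23.

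Most genes named here were picked for a small p in the HDM response of female WT MTECs. Their changes there are thus no separate support. Among the replication genes, Gmnn, the inhibitor of CDT1, fell in female WT MTECs (-0.74, SE 0.14), from 25.05 to 15.00 CPM. Slbp, which binds histone mRNA, fell too (-0.55, SE 0.09). The G1 regulators moved in both directions there. Ccnd1 (cyclin D1) rose from 843 to 1260.0 CPM (0.58, SE 0.11) and its partner Cdk6 rose (0.74, SE 0.06), while Cdc25b, a phosphatase that activates CDK1, fell (-1.48, SE 0.17). Among the inhibitors, Cdkn1a (p21) rose from 442 to 1019 CPM (1.20, SE 0.14) and Cdkn2b rose (1.33, SE 0.16), while Cdkn1b (p27) fell (-1.19, SE 0.11). Of the pocket proteins Rbl1 (p107) fell (-1.06, SE 0.18), and Rb1 and Rbl2 had 0.03 and 0.05 and did not pass.

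In the sex difference of KO HDM MTECs, Cdkn1a was lower in males (-0.81, SE 0.14; 367 against 645 CPM), as were Cdkn2b (-0.89), Cdk6 (-0.32) and Cdc25b (-0.78), and Cdkn1b was higher (0.65, SE 0.11). Ccnd1 (-0.23) and Ccne1 (-1.28), the cyclins of G1 and of S phase entry, did not pass, nor did Rbl1 (0.02) or Rb1 (-0.33).

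Multiciliated cells reuse relatives of cell cycle genes without dividing, and 9 such genes were listed. Under HDM 8 fell in female WT MTECs and 0 rose, with a median of -5.34 and 43.1% of all genes called, and 5 fell in female KO MTECs and 0 rose, with a median of -2.71 and 10.4% of all genes called. Ccno, a cyclin of centriole amplification, went from 8.31 to 0.326 CPM in female WT MTECs (-4.64, SE 0.74). Myb, the relative of Mybl2 that acts in that lineage, went from 9.22 to 0.834 (-3.45, SE 0.62). Both were picked for a small p in that response. Both were at low levels under HDM, so the sizes of their falls are imprecise. The levels of the other genes behind these medians are not given here.

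Promoter matches were set beside the differences. In the sex difference of KO HDM MTECs, the 10 genes with both a CCAAT box and a CHR had a median of -1.07 with 4 called, the 5 with an E2F element -0.73 with 2 called, and the 7 with no match -0.70 with 1 called, beside 25.3% of all genes. In the HDM response of female WT MTECs the medians were -0.54, -0.45 and -0.24, with 1, 0 and 2 called, beside 43.1% of all genes. These groups overlap for Cdk1 and Mcm7, which hold all 3 elements and are the 2 called E2F genes of the sex difference. Of the 10 genes with a CCAAT box and a CHR, 8 are mitotic. The 23 mitotic genes had medians of -1.14 in the sex difference and -0.41 in the HDM response. Genes with a CCAAT box alone were not set out, and differences between the groups were not tested.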

How the data were processed

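RNA-seq of 16 MTEC libraries was deposited as 1 table of raw read counts per Ensembl gene, which the authors made from reads. The submitters' processing notes name Trimmomatic 0.36, STAR 2.5.2b, featureCounts of Subread 1.5.2, DESeq2 and GRCm38, while the parameters, the strand setting and the annotation release are not given in the sources used here. Symbols, positions and exon lengths came from GENCODE M21 (GRCm38), which matched 49056 of 49315 identifiers, the others carrying 0.0106% of counts. From the deposited counts, edgeR 4.0.16 (R 4.3.3) was run with filterByExpr, TMM scaling, 1 mean per group over all 16 libraries and the quasi-likelihood test. P-values were adjusted by Benjamini-Hochberg over 15993 genes in each of 16 comparisons, with a call where the adjusted p was under 0.05. The standard error was the log2 fold change divided by the square root of F. Counts at an unadjusted p under 0.05 are given without the share of all genes, so they cannot be read against it. The common biological coefficient of variation was 0.142. Depth was 21860698 to 43442188 counts per library. With 2 libraries a group, each p-value sets a difference against the spread between replicates, estimated over all 16 libraries.

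Alternatives were DESeq2 1.42.0, other scalings and filters, the compared libraries alone, a replicate block, a fold threshold and leaving out each library. A fit without male KO naive replicate 2, whose Lman1 level goes against its label, was added after seeing the data. The 40 genes and all lists were chosen with earlier results of these data known.

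Genes written out for every library were Mki67, Top2a, the 3 factors and, in every other role, the 2 genes with the highest mean CPM per kb. From each list of other cell cycle genes those with the smallest p in the HDM response of female WT MTECs could be named, plus Cdkn1a, Ccnd1, Ccne1, Rb1, Rbl1 and Rbl2. Promoters came from RefSeq (GRCm38.p6), with 1 window for each of 27025 genes as the background. Those of the written-out genes with a match were printed unless the window overlapped an annotated exon. Mcm5 and Mcm6 fell outside that rule and were chosen after their E2F matches were seen.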

Additional observations from a re-analysis of the deposited data

Results flagged for a closer look

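The response to HDM in WT MTECs was called different between the sexes for Mcm2 and Cdt1, by edgeR's test of the interaction itself. These were 2 of the 40 genes, against 24.2% of all genes called. The median over the 40 genes was 0.56, and 0.12 without male WT HDM replicate 1. For Mcm2 the male response minus the female response was 0.86 (log2, SE 0.28, adjusted p = 0.0451 by edgeR). For Cdt1 it was 1.07 (SE 0.34, adjusted p = 0.0398 by edgeR). Neither was called when the 8 compared libraries alone were fitted.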

How the results depend on the processing

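No call of the 40 genes changed direction under an alternative run, but many runs called 0, and the size of the counts depended on the fit. Medians over the 40 genes did change sign in some comparisons. That of the HDM response of male WT went from 0.16 to -0.25 without male WT HDM replicate 1. Without a filter on low counts the calls were 22, 9 and 28 in the HDM responses of female WT, female KO and male KO MTECs, 30 and 37 in the sex differences of WT HDM and KO HDM, and 38 and 30 in the genotype differences of female and male HDM. They were 23 and 31 in the sex by HDM interactions of WT and KO, and 23 and 25 in the genotype by HDM interactions of females and males. With the compared libraries alone they were 11 in the female KO response, 0 and 38 in the sex differences of WT HDM and KO HDM, 0 in the sex by HDM interaction of WT and 2 in the genotype by HDM interaction of females. DESeq2 called 8 in the genotype difference of female HDM and 1 in that of male HDM, and it kept every call of the main analysis. With library size only, 5 were called in the sex difference of WT HDM. Requiring also a log2 fold change of at least 1 left 0 in the HDM response of female WT, 0 in the sex difference of WT HDM, 1 in the genotype difference of female HDM and 1 in the sex by HDM interaction of WT. Without male KO naive replicate 2 that interaction had 1. The cause was not tested. For the alternative fits, here and elsewhere in the text, the share of all genes called is not given. Their counts of the 40 genes therefore cannot be read against it.

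Leaving out 1 compared library gave 0 to 13 calls in the HDM response of female WT, 0 to 14 in the sex difference of WT HDM, 0 to 1 in that of KO HDM, 0 to 15 in the genotype difference of female HDM, 0 to 4 in the sex by HDM interaction of WT and 0 to 2 in the genotype by HDM interaction of females. The libraries share a replicate number and no stated pairing. The correlation of same-numbered deviations ran from -0.164 to 0.483 over the 12 comparisons. With the replicate number as a block, calls were 8 in the HDM response of female WT, 9 and 25 in the sex differences of WT HDM and KO HDM, 31 and 14 in the genotype differences of female and male HDM, 5 in the sex by HDM interaction of WT, 5 in the genotype by HDM interaction of females and 0 in the others.

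With library size only, the share of all called genes that were higher went from 47.9% to 38.6% in the HDM response of female WT, from 51.1% to 61.7% in the genotype difference of female HDM and from 54.8% to 67.0% in the genotype by HDM interaction of females. The median of all genes in the first was then -0.103, beside -0.47 for the 40 genes. Depth did not limit the 40 genes, whose lowest count was 75.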
